A study of Mus musculus with 12 samples.

Results

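The SPARC family comprises secreted calcium-binding glycoproteins of the extracellular matrix, and its genes were examined in mouse undifferentiated spermatogonia from cryptorchid and control testes. Members were taken by gene symbol, namely *Smoc1*, *Smoc2*, *Sparc*, *Sparcl1*, *Spock1*, *Spock2* and *Spock3*, together with the follistatin-domain relative *Fstl1*. All 8 were found among the 21859 protein-coding genes of the deposited expression values, and all 8 were among the 16932 genes that passed the filter on low values (RPM, the number of reads scaled to a common library total, had to have a mean with a log2 above -1 over all libraries). *Smoc1* was picked because its RNA levels in the groups did not overlap, and the other 7 joined it through family membership.

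RNA was sequenced from cells sorted out of the testes of adult (8 to 10 weeks old) male GFRa1-EGFP mice, a line in which a fluorescent reporter marks cells expressing the GDNF receptor GFRa1, an undifferentiated spermatogonia marker, and both groups carried this reporter. In the cryptorchid group (7 libraries) the left testis had been fixed surgically to the abdominal wall 10 days earlier, and in the control group (5 libraries) the right testis had stayed in the scrotum. The labels give the genotype of the control samples as WT and enter the word Cryptorchid in its place for the others, with no further allele or agent named. GFRa1-EGFP-positive, KIT-negative cells were collected, so that KIT-positive differentiating spermatogonia were gated out. Each library was prepared by Smart-seq2, a full-length method for small inputs without molecular identifiers. Cells of the control testis were released by digestion at a lower temperature than those of the cryptorchid testis, so this step and the surgery cannot be told apart. No source used here tells which left and right testes came from 1 animal, or that the libraries of a group came from different animals, so *P*-values measure the spread between these libraries. The model also differs from the human congenital disorder, as the testes had descended before surgery.

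Proteins of this family share a follistatin-like domain and, in most members, an extracellular calcium-binding domain with EF hands. They are called matricellular because they modulate how cells meet collagens, growth factors and proteases rather than build the matrix themselves. SPARC and its close relative SPARCL1 (hevin) bind collagen, the testicans SPOCK1 to SPOCK3 are proteoglycans that act on proteases, SMOC1 and SMOC2 are modular proteins of basement membranes, SMOC1 being an inhibitor of bone morphogenetic protein (BMP) signaling, and FSTL1 binds BMP and TGF-beta ligands. In the testis, SPARC is known as a product of Sertoli and Leydig cells.

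In cryptorchid spermatogonia *Smoc1* RNA was 3.17-fold higher than in control, and *Spock3* RNA was 3.09-fold higher with few reads. *Smoc2*, the most abundant member per length in both groups, differed by 1.38-fold, which was within the spread of the libraries when replicate numbers were not used. *Spock1*, *Spock2* and *Fstl1* had higher means in cryptorchid cells without passing the test, while *Sparc* and *Sparcl1* varied far more within each group than between the groups. At 2-fold and an unadjusted limma *P*-value under 0.05, 2 of the 8 members were called higher, *Smoc1* and *Spock3*, beside 3.56% of all genes tested. None was called lower, beside 2.36% of all genes tested. *Smoc1* was chosen on this contrast, so the count that can be read against the background is 1 of 7. With Benjamini-Hochberg adjustment over all genes tested, 0 of the 8 had a limma *P*-value under 0.05, beside 0.0118% (2 genes) of all genes tested; without adjustment the limma *P*-value of 1 of the 7 members other than *Smoc1* was under 0.05, beside 9.48% of all genes tested, a share that 1 of 7 does not set apart, and 1 of the 7 passed an exact rank sum test. Among the 7 other members the log2 difference was above 0 for 6 and below 0 for 1, with a median of 0.47, and over all genes tested the median was 0.10 and 56.7% were above 0.

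Depth and library sets bear on how firmly these values can be read. Reads on genes, recovered from the steps of the RPM values, ranged from 4511730 to 24345368 in control and from 3306771 to 20027902 in cryptorchid libraries. Replicates 1 to 3 of both groups stood apart from replicates 4 and above in the share of the RPM total that lies on genes (74.5% to 94.0% against 94.8% to 99.9%) and in how often low read numbers were even (53.2% to 60.8% against 48.2% to 50.5%). The labels name no batch, so the difference of each member and of each called related gene is also given within these sets. Markers of undifferentiated spermatogonia summed to 2500 to 3630 RPM in control and 2390 to 3930 RPM in cryptorchid libraries, with 0 of 14 called in either direction. Markers of other testis cell types were present at lower levels and are given beside the genes with which they moved. In such bulk samples a change in the number of cells of a type and a change in RNA per cell cannot be told apart.

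*Smoc1* and *Smoc2* are the closest relatives in the set and share stretches of identical sequence, so it was asked first whether their reads could be told apart. Over the aligned coding sequences 64.9% of bases were identical (875 of 1348), and the longest run found in both was 33 bases, whereas any other pair of members shared at most 19 bases in a row. The 96 coding bases around that run are shown because they are where the pair is hardest to distinguish. They come from the GENCODE vM21 transcripts of each gene, with capitals marking the 26 bases that differ.
*Smoc1*: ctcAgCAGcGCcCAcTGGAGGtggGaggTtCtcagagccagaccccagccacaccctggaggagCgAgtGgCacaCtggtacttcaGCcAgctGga
*Smoc2*: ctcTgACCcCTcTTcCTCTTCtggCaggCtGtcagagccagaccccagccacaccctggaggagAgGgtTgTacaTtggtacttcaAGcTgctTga
Differences lay on both sides of the shared run, and within this window 72.9% of bases were identical. The paper's methods give paired-end reads longer than the 33 bases of this run, so only a read shortened by trimming could lie wholly inside it. How the authors' mapping treated such a short read is not given in the sources used here. None of the 8 members has an exon that overlaps an exon of another gene in this annotation.

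*Smoc1* lies on the plus strand of chromosome 12 (chr12:81026808-81186414, GRCm38, the build also called mm10). Its RNA was at 3.89, 5.30, 4.43, 4.20 and 4.59 log2 RPM in control replicates 1 to 5. The 7 cryptorchid libraries ran from 5.73 over a median of 6.17 to 6.54 log2 RPM. No cryptorchid library overlapped a control, and the lowest of them was 0.43 log2 RPM above control replicate 2, the highest control. This separation is what the gene was picked for, and it is given as a description; 94 genes (0.555% of those tested) had it. Mean log2 RPM was 4.48 ± 0.527 in control (SD, n = 5) and 6.15 ± 0.299 in cryptorchid cells (SD, n = 7), and the log2 difference was 1.66 (SE 0.281). Between 101 and 1133 reads per control library and between 242 and 1218 per cryptorchid library stood behind these values. The log2 difference was 1.68 within replicates 1 to 3 and 1.69 within replicates 4 and above.

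*Smoc2*, on chromosome 17 (chr17:14279506-14404790, plus strand), encodes the other secreted modular calcium-binding protein, which is found in basement membranes. Control replicates 1 to 5 had 6.52, 6.52, 7.81, 7.39 and 7.36 log2 RPM. The cryptorchid libraries spanned 7.05 to 8.20 with a median of 7.60 log2 RPM, and the groups overlapped, 2 cryptorchid libraries being above every control. Means were 7.12 ± 0.576 (SD, n = 5) and 7.58 ± 0.4 log2 RPM (SD, n = 7). The log2 difference of 0.47 (SE 0.288) was within the replicate spread (limma *P* = 0.124, Benjamini-Hochberg adjusted *P* = 0.635, exact two-sided rank sum *P* = 0.268). It was 0.55 in replicates 1 to 3 and 0.28 in replicates 4 and above. These tests made no use of replicate numbers, which no source ties to animals. In replicates 1 to 5 each cryptorchid library was above the control of the same number. With replicate number as a block in the fit the log2 difference was 0.49. It then passed the unadjusted limma threshold and stayed under the 2-fold limit, so the spread verdict holds only without replicate numbers.

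**Figure D1:**
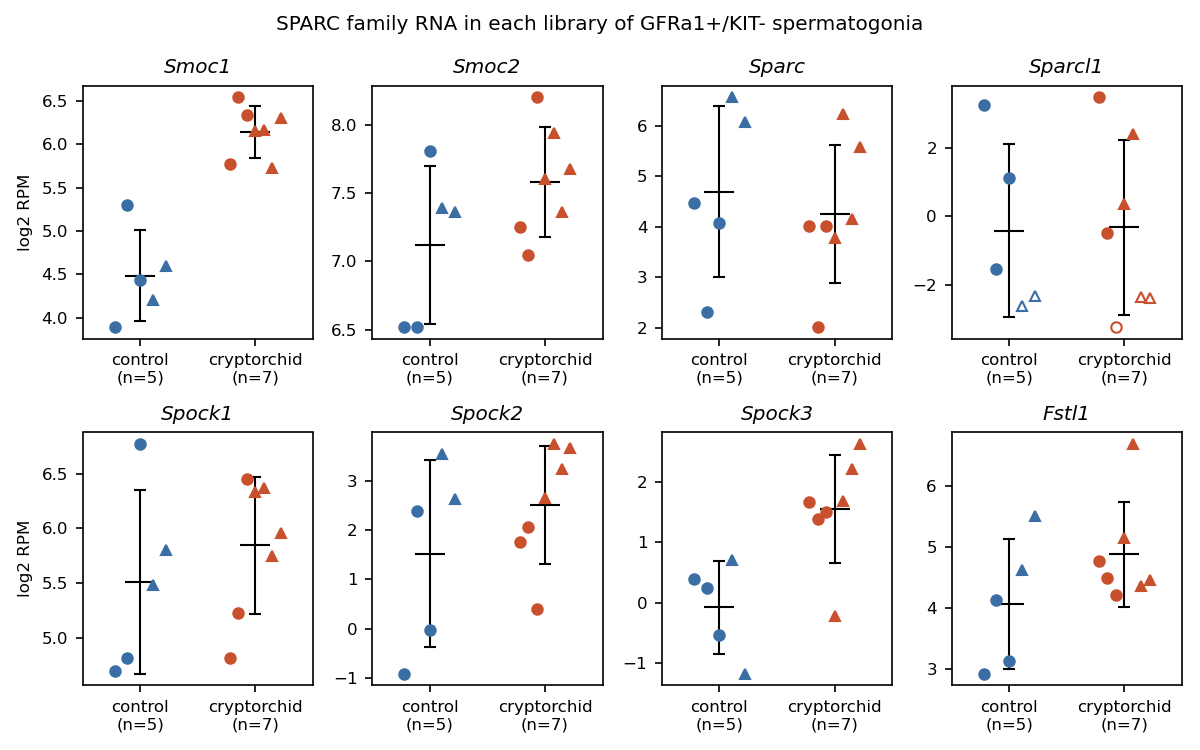
Log2 RPM of the 8 genes in each library of control (blue, n = 5) and cryptorchid (red, n = 7) spermatogonia, with the group mean and SD as black lines, circles for replicates 1 to 3, triangles for replicates 4 and above and open symbols for libraries without a read. *Smoc1* separates the groups with a gap of 0.43 log2 RPM, *Spock3* does so for 6 of 7 cryptorchid libraries, and *Sparc* and *Sparcl1* spread over several log2 units within each group.

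Relating both genes within a library removes the scaling that libraries share. The ratio of *Smoc1* to *Smoc2*, each per kilobase of exon, was 0.32, 0.85, 0.19, 0.22 and 0.29 in control replicates 1 to 5. In cryptorchid libraries it ran from 0.55 over a median of 0.71 to 1.4. Control replicate 2 was the only control inside the cryptorchid range, and it combined the highest *Smoc1* with one of the 2 lowest *Smoc2* levels of its group. As *Smoc1* was selected on its group difference, this ratio is a description with no test. On the same per-length scale *Smoc1* made up a median of 10.5% of the RNA of the 8 genes in control (7.85% to 33.1%) and 28.1% in cryptorchid libraries (18.5% to 46.5%), while *Smoc2* made up 38.9% (35.9% to 55.0%) and 39.4% (31.7% to 49.9%). Mean log2 RPM per kilobase put *Smoc2* first in control at 4.32 ± 0.58 (SD, n = 5). It was followed by *Sparc* at 2.77 ± 1.69, *Smoc1* at 2.68 ± 0.53 and *Spock1* at 2.45 ± 0.84, whose spreads overlap. In cryptorchid libraries *Smoc2* at 4.79 ± 0.40 and *Smoc1* at 4.34 ± 0.30 (SD, n = 7) stood above *Spock1* at 2.78 ± 0.62, *Fstl1* at 2.58 ± 0.85 and *Sparc* at 2.33 ± 1.36, which lay within their spreads of each other. *Spock2*, *Spock3* and *Sparcl1* were lowest per length in both groups.

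**Figure D2:**
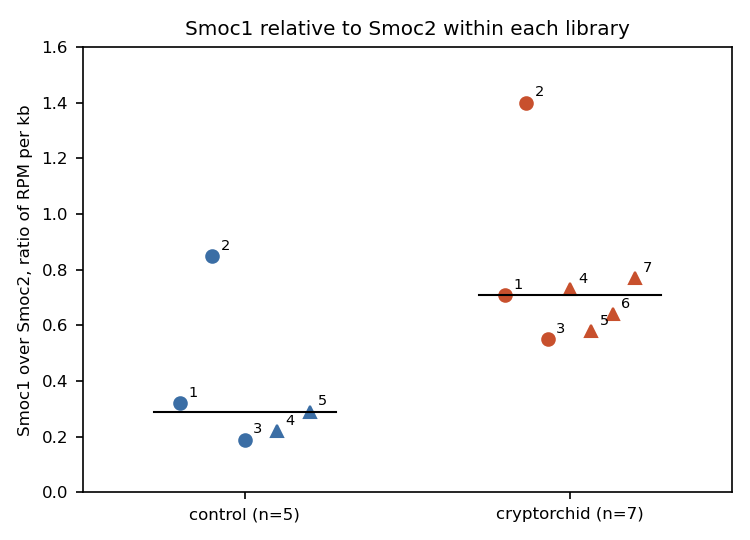
Ratio of *Smoc1* to *Smoc2* RNA in each library, each in RPM per kilobase of exon, for control (blue) and cryptorchid (red) spermatogonia, numbered by replicate, with the group median as a line. The medians are 0.29 and 0.71, and control replicate 2 at 0.85 is the only control among the cryptorchid values.

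*Sparc*, on the minus strand of chromosome 11 (chr11:55394500-55423183), encodes the collagen-binding founder of the family. Control replicates 1 to 5 had 4.46, 2.31, 4.07, 6.56 and 6.08 log2 RPM. Cryptorchid libraries ran from 2.01 over a median of 4.01 to 6.24 log2 RPM, within the span of the controls except for the lowest. Means were 4.70 ± 1.69 (SD, n = 5) and 4.25 ± 1.36 log2 RPM (SD, n = 7), a log2 difference of -0.44 (SE 0.712, limma *P* = 0.54, adjusted *P* = 0.88, exact two-sided rank sum *P* = 0.432). It was -0.27 in replicates 1 to 3 and -1.38 in replicates 4 and above.

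High and low *Sparc* libraries occurred in both groups. Markers of Sertoli cells, the somatic nurse cells of the tubule, summed to 59.8, 47.2, 75.8, 289 and 271 RPM in control replicates 1 to 5, and the controls with the most of these markers were those with the most *Sparc*. In cryptorchid replicates 1 to 7 the same sum was 90.4, 48.3, 45.2, 155, 227, 191 and 272 RPM. Cryptorchid replicate 2, with the lowest *Sparc* level of all libraries, was also near the bottom of this sum, and replicates 5 and 7, with the highest *Sparc* of their group, were at its top. Taken over both sets, other libraries did not follow this order. Cryptorchid replicate 3 had the lowest sum with *Sparc* at 4.01 log2 RPM, the group median. Cryptorchid replicates 4 and 6 had sums of 155 and 191 RPM with *Sparc* at 3.77 and 4.15 log2 RPM. The sums were 45.2 to 90.4 RPM in replicates 1 to 3 and 155 to 289 RPM in replicates 4 and above. Within replicates 4 and above, cryptorchid replicates 4 and 6 had the lowest sums and also the lowest *Sparc*. All 11 Sertoli cell markers passed the filter and 0 were called between groups, with *Clu* the most abundant at 89.3 RPM in control and 86.6 RPM in cryptorchid. The part of Sertoli cell RNA in the *Sparc* values was not tested.

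*Sparcl1*, on the minus strand of chromosome 5 (chr5:104079111-104113733), encodes hevin, which is abundant in blood vessels and brain. It had no reads in 2 control and 3 cryptorchid libraries, and up to 229 reads in the other controls and 246 in the other cryptorchid libraries. In log2 RPM the controls stood at 3.23, -1.52, 1.11, -2.61 and -2.33, where the last 2 are the value that the deposited data give to a gene without reads (0.9 reads). Cryptorchid libraries ranged from -3.22 over a median of -0.48 to 3.46 log2 RPM. Replicate 1 was the highest of its group in both groups. Means were -0.42 ± 2.52 (SD, n = 5) and -0.31 ± 2.55 log2 RPM (SD, n = 7), and the log2 difference of 0.11 (SE 1.3, limma adjusted *P* = 0.986, exact two-sided rank sum *P* = 1.0) changed sign between the sets, from -1.02 in replicates 1 to 3 to 1.98 in replicates 4 and above.

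The testicans are represented by all 3 genes. *Spock1*, on the minus strand of chromosome 13 (chr13:57421195-57908332), encodes testican-1, first purified from seminal plasma. Control replicates 1 to 5 had 4.70, 4.82, 6.77, 5.48 and 5.80 log2 RPM. The cryptorchid libraries ran from 4.82 over a median of 5.96 to 6.45 log2 RPM, all within the control span. Means were 5.51 ± 0.839 (SD, n = 5) and 5.84 ± 0.624 log2 RPM (SD, n = 7), a log2 difference of 0.33 (SE 0.379, limma adjusted *P* = 0.82, exact two-sided rank sum *P* = 0.432). It was 0.07 in replicates 1 to 3 and 0.46 in replicates 4 and above.

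*Spock2*, on the plus strand of chromosome 10 (chr10:60106219-60135198), encodes testican-2 and had 10 to 151 reads per control and 11 to 76 reads per cryptorchid library. Its controls were at -0.91, 2.39, -0.03, 3.54 and 2.63 log2 RPM. Cryptorchid libraries lay between 0.39 and 3.75 with a median of 2.65 log2 RPM, and 2 of them exceeded every control. The log2 difference of 0.98 (SE 0.819) was within a large replicate spread (SD 1.9 in control, n = 5, and 1.2 in cryptorchid, n = 7; limma adjusted *P* = 0.74, exact two-sided rank sum *P* = 0.343). It was 0.93 in replicates 1 to 3 and 0.24 in replicates 4 and above, and it was 0.37 without control replicate 1 and 1.48 without control replicate 4.

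*Spock3*, on the plus strand of chromosome 8 (chr8:62951009-63357103), encodes testican-3 and was the only member other than *Smoc1* past the test. Control replicates 1 to 5 had 0.39, 0.24, -0.54, 0.71 and -1.17 log2 RPM. The cryptorchid libraries had 1.67, 1.38, 1.51, -0.21, 1.69, 2.21 and 2.63 log2 RPM in replicates 1 to 7. Of these, 6 were above every control, and replicate 4 was below 3 of the 5 controls. Read numbers were small, from 2 to 34 per control library and from 4 to 71 per cryptorchid library, and replicate 4 rested on 4 reads. Means rose from -0.07 ± 0.769 (SD, n = 5) to 1.55 ± 0.892 log2 RPM (SD, n = 7), a log2 difference of 1.63 (SE 0.69) that passed the unadjusted limma threshold. It did not pass Benjamini-Hochberg adjustment over all genes tested (limma adjusted *P* = 0.47). The exact two-sided rank sum *P*-value was 0.0177 over all 792 arrangements, where 0.00253 is the smallest that 5 against 7 libraries allow. With groups exchanged within the library sets only (300 arrangements) it was 0.0233. The log2 difference was 1.49 in replicates 1 to 3 and 1.81 in replicates 4 and above. The call was lost without control replicate 3, where the log2 difference was 1.51, without control replicate 5, where it was 1.35, and without cryptorchid replicate 6 or 7, where it was 1.52 and 1.45. It was also lost when no filter on low values was applied, with quantile normalization, with array weights, with a replicate block and in either library set alone. The log2 differences were then 1.28 to 1.81.

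*Fstl1*, on the plus strand of chromosome 16 (chr16:37776873-37836514), encodes a secreted glycoprotein that binds BMP ligands and is made by many mesenchymal cells. Control replicates 1 to 5 stood at 2.93, 4.13, 3.14, 4.63 and 5.51 log2 RPM. Cryptorchid libraries ran from 4.22 over a median of 4.49 to 6.69 log2 RPM, all 7 above the control median of 4.13 and 1 above every control. Means were 4.07 ± 1.07 (SD, n = 5) and 4.88 ± 0.853 log2 RPM (SD, n = 7), a log2 difference of 0.81 (SE 0.49, limma *P* = 0.115, adjusted *P* = 0.625, exact two-sided rank sum *P* = 0.268). With replicate number as a block in the fit it was 1.0, past the unadjusted limma threshold and just under the 2-fold limit. Without the block the log2 difference was 1.10 in replicates 1 to 3 and 0.10 in replicates 4 and above. Single libraries moved this value, which was 1.17 and passed the limma threshold without control replicate 5, the highest control, but was 0.51 without cryptorchid replicate 5, the highest library of all, and 0.53 without control replicate 1, neither past the threshold.

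**Figure D3:**
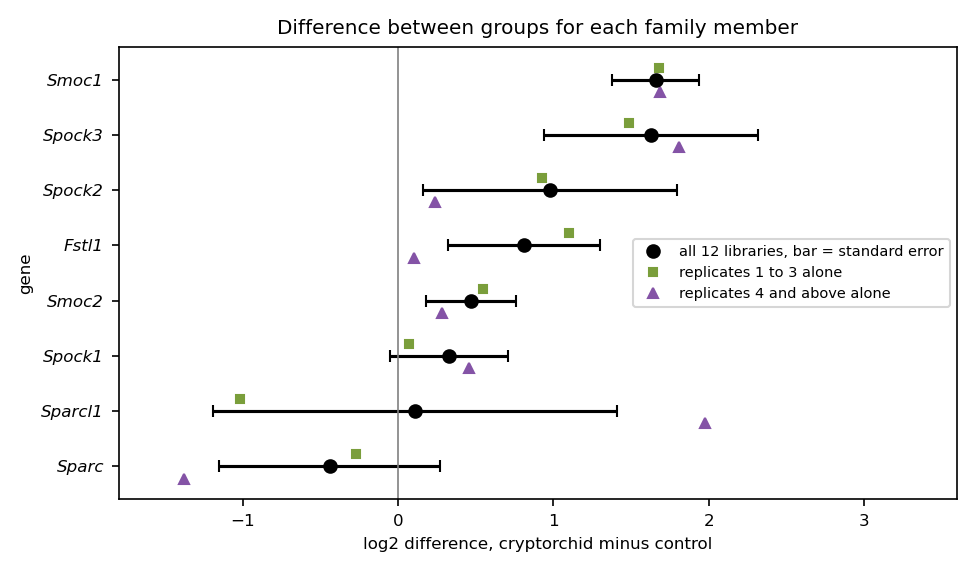
Log2 difference, cryptorchid minus control, of the 8 genes, with black dots and standard error bars for all 12 libraries, green squares for replicates 1 to 3 alone and purple triangles for replicates 4 and above alone. The set estimates for *Smoc1* are 1.68 and 1.69, those for *Sparcl1* are -1.02 and 1.98, and 7 genes keep their sign in both sets.

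Interstitial fibroblast markers summed to 4.11 to 17.9 RPM (median 6.55) in control and 12.4 to 27.2 RPM (median 21.9) in cryptorchid libraries. Of 6 markers 4 passed the filter, and of these *Pdgfra* and *Mfap5* were called higher, beside 3.56% of all genes tested. *Pdgfra*, the most abundant, was at 5.44 RPM in control and 13.0 RPM in cryptorchid, where the mean *Smoc1* level was 23.7 and 72.1 RPM, and 1 of the 6 markers had no read in any control library. Endothelial markers summed to 25.7 to 49.2 RPM (median 41.3) and 36.9 to 74.1 RPM (median 40.3), with *Cdh5*, *Tie1* and *Vwf* of 8 past the filter called higher. Macrophage markers went from a median of 18.4 RPM (3.62 to 23.8) to 26.1 RPM (11.3 to 36.6), with *Mrc1* of 6 past the filter called higher. In the other direction, peritubular myoid markers went from a median of 53.4 RPM (24.8 to 56.6) to 16.3 RPM (4.10 to 45.7). Of 5 past the filter *Actg2* was called lower and *Des* higher. Spermatocyte and spermatid markers went from 1410 RPM (792 to 2820) to 533 RPM (384 to 2130). Of 10 past the filter *Prm1* and *Prm2* were called lower, beside 2.36% of all genes tested. The medians of Leydig cell markers were 12.4 (8.64 to 15.5) and 19.6 RPM (6.18 to 47.8), those of lymphocyte markers 7.15 (0.348 to 8.20) and 7.76 RPM (0.833 to 12.5), and those of differentiating spermatogonia 301 (161 to 345) and 310 RPM (203 to 385), where *Stra8* of 5 past the filter was called higher. *Smoc1* and *Spock3*, called higher, and *Fstl1*, with a higher mean, moved in the direction of the fibroblast marker median. This direction does not set the 3 genes apart, as 7 of the 8 members had a log2 difference above 0. That of *Smoc1* was also fixed by its selection. The medians of Sertoli cell, Leydig cell and macrophage markers were also higher in cryptorchid libraries when the sets were pooled. For Sertoli cells this did not hold within the sets. Their sums in replicates 1 to 3 were 59.8, 47.2 and 75.8 RPM in control and 90.4, 48.3 and 45.2 RPM in cryptorchid. In replicates 4 and above they were 289 and 271 RPM against 155 to 272 RPM. Leydig cell sums in replicates 1 to 3 were 10.1 to 14.1 RPM in control and 7.09, 6.18 and 47.8 RPM in cryptorchid. Among cryptorchid libraries *Spock3* was highest (2.63 log2 RPM) in replicate 7, which had the lowest fibroblast sum (12.4 RPM). *Smoc1* was highest (6.54 log2 RPM) in replicate 2, with a sum of 14.6 RPM. *Fstl1* was highest (6.69 log2 RPM) in replicate 5, with the highest sum (27.2 RPM). Interstitial cells had been depleted by dissociating the tubules before digestion and sorting, and the part of any that remained in the values of the 3 genes was not tested.

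Across the 12 libraries the members did not move as a block. After subtraction of the group means, the correlations of the 28 pairs had a median Pearson's r of 0.02, and 15 pairs were above 0. The exception was *Smoc2* with *Spock1*, whose r was 0.91 (permutation *P* = 0.00034, Benjamini-Hochberg adjusted over the 28 pairs *P* = 0.00952) and whose Spearman's rho was 0.90 (permutation *P* = 0.00037, adjusted *P* = 0.0104). Both genes were high in replicate 3 of either group, where *Smoc2* was at 7.81 and 8.20 and *Spock1* at 6.77 and 6.45 log2 RPM, and both were low in replicates 1 and 2. Without the 2 libraries farthest from the median of *Smoc2*, r was 0.87. Within replicates 1 to 3 it was 0.94, but within replicates 4 and above 0.47 (6 libraries each), so the relation was carried more by the first set. The permutations shuffled libraries within groups and kept neither sets nor replicate numbers. Their *P*-values thus treat libraries that share a set or a number as independent. The next pair, *Spock2* with *Fstl1*, had an r of 0.70 (permutation *P* = 0.0278, adjusted *P* = 0.389), and *Smoc1* with *Sparc* had the lowest at -0.44.

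**Figure D4:**
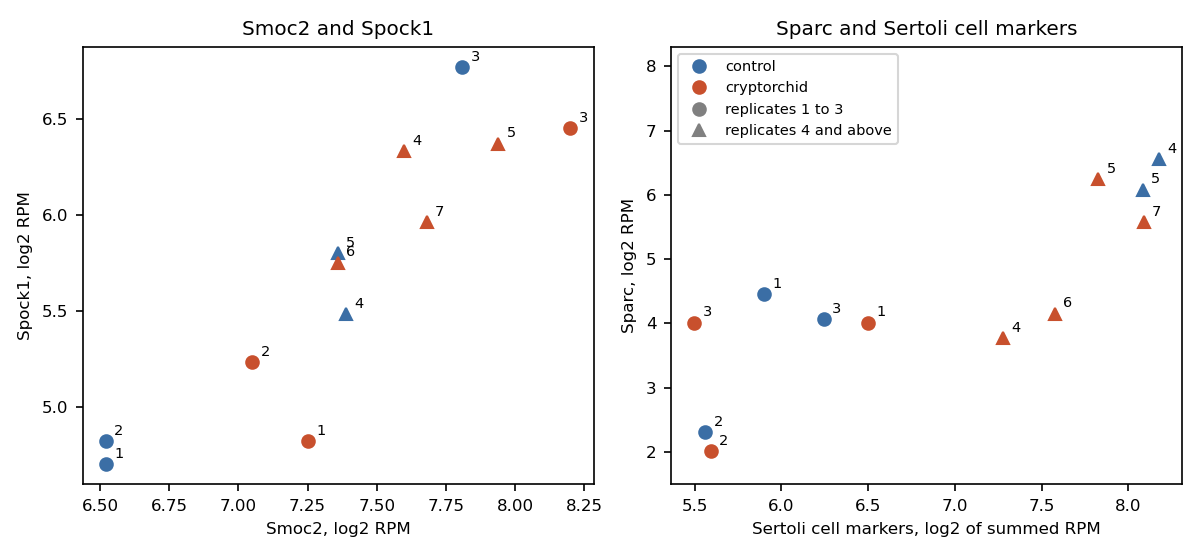
Left, *Spock1* against *Smoc2* in log2 RPM; right, *Sparc* in log2 RPM against the log2 of the summed RPM of 11 Sertoli cell markers, with 1 symbol per library, numbered by replicate, blue for control and red for cryptorchid, circles for replicates 1 to 3 and triangles for replicates 4 and above. *Smoc2* and *Spock1* are high in the same libraries of both groups (r of deviations from the group means 0.91), and control replicates 4 and 5 are high in *Sparc* and in Sertoli cell markers.

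The genes whose log2 RPM followed *Smoc1* most closely over the 12 libraries were *Nectin1*, which encodes a cell adhesion molecule (r = 0.94, rho = 0.94), *Cpne8*, which encodes a copine (r = 0.94, rho = 0.90), *Hcn4*, which encodes a pacemaker ion channel (r = 0.93, rho = 0.87), *Fam114a1* (r = 0.92, rho = 0.76) and *Mindy2*, which encodes a deubiquitinase (r = 0.91, rho = 0.84). They were taken as the 5 highest of 16931 genes, of which 65 (0.384%) had r above 0.8, so no *P*-value is given. All 5 had higher means in cryptorchid cells, from 1.25 log2 for *Cpne8* to 3.62 log2 for *Hcn4*, and a part of the likeness is this shared group difference. With the group means subtracted r was 0.73 for *Nectin1*, 0.66 for *Cpne8*, 0.66 for *Hcn4*, 0.60 for *Fam114a1* and 0.68 for *Mindy2*. These values come from the same libraries on which the 5 genes were picked, so they too are a description with no test.

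It was then asked how other genes of the matrix and BMP pathways in which these proteins act behaved. Of 100 such genes 93 passed the filter, and 1 was called higher (1.08%, beside 3.56% of all genes tested) and 4 lower (4.30%, beside 2.36%). With Benjamini-Hochberg adjustment 0 of the 93 had a limma *P*-value under 0.05, their median log2 difference was 0.18, and 60 were above and 33 below 0. Among 15 other matricellular genes past the filter (thrombospondins, tenascins, CCN genes and relatives), 0 were called higher and 2 lower, while 13 had a log2 difference above 0 (median 0.44). The 2 were *Comp*, which encodes a thrombospondin family protein of cartilage and tendon, and *Tgfbi*, which encodes a TGF-beta-induced adhesion protein. *Comp* fell from 4.96 ± 0.739 (SD, n = 5) to 2.33 ± 1.78 log2 RPM (SD, n = 7), with 6 of 7 cryptorchid libraries below every control (log2 difference -2.64, SE 0.729, limma adjusted *P* = 0.226). Its log2 difference was -3.71 in replicates 1 to 3 and -2.14 in replicates 4 and above. *Tgfbi* fell from 3.44 ± 0.553 to 1.99 ± 1.25 log2 RPM (log2 difference -1.44, SE 0.622, limma adjusted *P* = 0.479), and its log2 difference was -0.59 in replicates 1 to 3 and -2.26 in replicates 4 and above. The summed level of peritubular myoid markers was also lower in cryptorchid libraries. These markers split in direction, with *Actg2*, the most abundant (37.7 RPM in control and 10.9 RPM in cryptorchid), called lower and *Des* called higher. The part of peritubular myoid cells in the *Comp* and *Tgfbi* values was not tested.

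None of the 9 other follistatin-domain genes, of the 8 collagens bound by SPARC that passed the filter or of the 16 basement membrane genes was called in either direction, and their median log2 differences were 0.42, 0.04 and 0.13. Of 19 receptors, proteases and other partners 1 was called lower (5.26%, beside 2.36% of all genes tested), *Pdgfb*, which encodes a growth factor that SPARC binds. It fell from 4.75 ± 0.465 (SD, n = 5) to 3.73 ± 0.511 log2 RPM (SD, n = 7), a log2 difference of -1.01 (SE 0.359, limma adjusted *P* = 0.38). The log2 difference was -0.44 in replicates 1 to 3 and -1.5 in replicates 4 and above, so it passed 2-fold in the second set only.

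Of 12 BMP ligands and receptors past the filter, 1 was called higher and 1 lower, both ligands (8.33% each, beside 3.56% and 2.36% of all genes tested). *Bmp8a*, a ligand made by germ cells, fell from 4.85 ± 0.957 (SD, n = 5) to 1.78 ± 1.59 log2 RPM (SD, n = 7), a log2 difference of -3.07 (SE 0.713, limma adjusted *P* = 0.142). It had 242 to 744 reads per control and 3 to 71 reads per cryptorchid library, 6 of 7 cryptorchid libraries lay below every control, and the log2 difference was -2.87 and -3.64 in the library sets. Spermatocyte and spermatid markers were lower in the same group (median 1410 RPM in control and 533 RPM in cryptorchid), and their part in the *Bmp8a* values was not tested. *Bmp6* rose from 3.23 ± 0.612 to 4.25 ± 0.929 log2 RPM, a log2 difference of 1.02 (SE 0.476, limma adjusted *P* = 0.521) that was 0.34 in replicates 1 to 3 and 1.55 in replicates 4 and above. Neither the 6 BMP antagonists past the filter nor the 8 genes of SMAD signal transducers and ID proteins held a called gene, and their median log2 differences were 0.16 and 0.09.

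**Figure D5:**
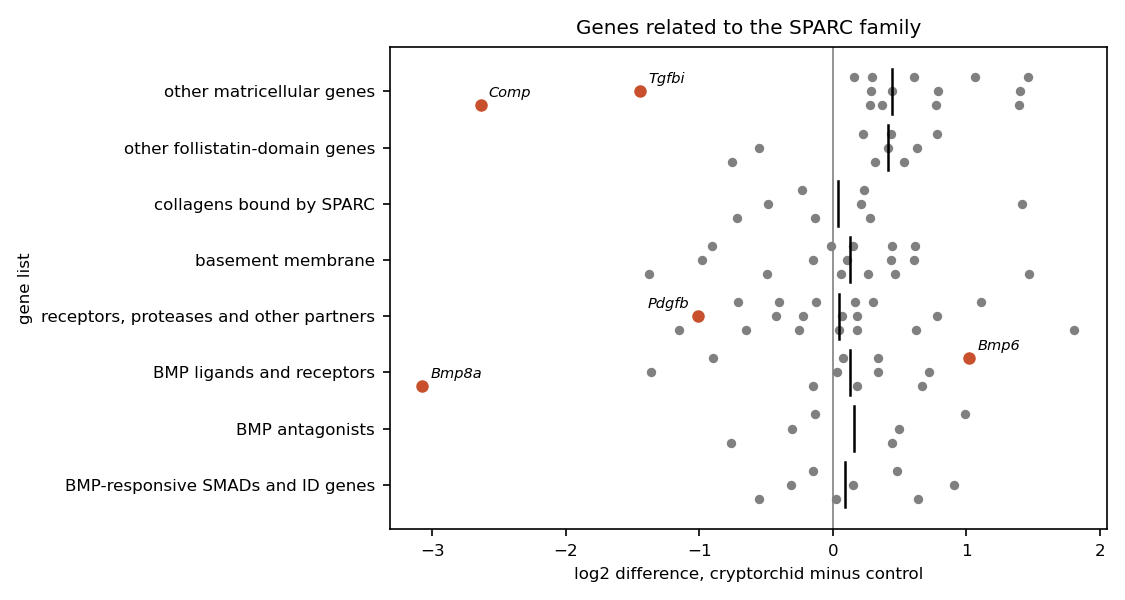
Log2 difference, cryptorchid minus control, of each gene of 8 related lists (grey dots, red and named where called at 2-fold and an unadjusted limma *P*-value under 0.05), with the list median as a black line. *Bmp8a* at -3.07 and *Comp* at -2.64 lie farthest below 0, and *Bmp6* at 1.02 is the only one called higher.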

How the data were processed

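RNA from sorted GFRa1-EGFP+/KIT- cells of 5 control and 7 cryptorchid testes was measured by Smart-seq2. Per the submitters' processing notes, reads passed FastQC (0.11.8) and Trim Galore (0.6.6) and were aligned to mm10 by HISAT2 (2.1.0). SeqMonk with the UCSC protein-coding annotation then gave the log2 RPM values that the authors deposited. Duplicate removal for RNA-seq and the counting strand are not given in the sources used here. Groups and replicate numbers were taken from the sample titles, and 0 columns belonged to no sample.

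RPM steps gave whole reads for 100% of values under 1000 reads (tolerance 0.02), with genes without reads set at 0.9 reads. Read numbers cover counting error only, since amplified reads are not independent molecules. No 2 replicates agreed within sampling noise (chi-square per degree of freedom 12.8 to 253 over 31 pairs).

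Differences were tested on the log2 RPM values of all 12 libraries with limma 3.58.1 (trend) in R 4.3.3, group only and two-sided, over 16932 genes (mean RPM with a log2 above -1). A gene was called at 2-fold and an unadjusted *P*-value under 0.05, after the limits in the study's methods, and *P*-values were adjusted over all genes tested (Benjamini-Hochberg). The authors used edgeR, which needs counts. Single members were also tested by exact two-sided rank sum (792 arrangements, 300 within the library sets) in Python 3.11.15 with scipy 1.17.1. Correlations used 100000 permutations within groups. The limma step was tested on simulated data. Positions, exon lengths and coding sequences are those of GENCODE vM21, and 6 CCN genes were matched through RefSeq synonyms. Named genes were all members, the called genes of the related lists, the most abundant markers of a list and the 5 genes most like *Smoc1*. The members, gene lists and library sets were chosen with earlier results of these data known. Alternatives were other pseudocounts, filters, scalings, weights, voom, a replicate block, the library sets and leaving out each library.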

Additional observations from a re-analysis of the deposited data

Results flagged for a closer look

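*Fstl1* in cryptorchid replicate 5 stood apart from the rest of its group at 6.69 log2 RPM, with a gap to the next library of 0.626 of the group's range. It was the only 1 of 16 groups of values, 8 genes in control and in cryptorchid libraries, to do so by Dixon's criterion, which chance alone meets in about 1 of 20 groups.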

How the results depend on the processing

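The log2 difference of *Smoc1*, on which the gene was chosen, ran from 1.52 to 1.87 over the alternatives. Of the 8 members 2 were called as reported and 1 without the filter, with quantile normalization, array weights or a replicate block, and in either library set alone; leaving out 1 library gave 1 to 2. *Spock3* was the call lost (limma *P* 0.0504, 0.0558, 0.0726 and 0.11, and 0.203 and 0.119 in the sets), with its log2 difference between 1.02 and 1.92. It was also lost without control replicate 5, where the 2 called were *Smoc1* and *Fstl1*. *Sparcl1* (0.11) turned to -0.00 with quantile normalization, -0.05 with voom and -1.02 in replicates 1 to 3, and ranged from -0.52 to 1.03 with 1 library left out. *Sparc* ranged from -1.04 to 0.02, the latter without control replicate 4. The related genes called higher (1) were 0 with log2(RPM + 1), median centring, quantile normalization or a set term, 2 with voom or the replicate block, and 5 with array weights or in replicates 4 and above, with 0 to 4 when 1 library was left out. Those called lower (4) were 2 with voom, the replicate block or replicates 1 to 3 alone, and 2 to 5 with 1 library left out, while they were 5 with array weights and 6 in replicates 4 and above. With 1 library left out *Smoc2* ranged from 0.31 to 0.64, *Spock1* from 0.13 to 0.65, *Spock2* from 0.37 to 1.48 and *Fstl1* from 0.51 to 1.17. The cause of these shifts was not tested. Over all genes 603 were called higher and 399 lower, against 532 and 501 with median centring, 457 and 542 with quantile normalization, 882 and 703 with array weights, 778 and 900 with the replicate block, 580 and 635 with the set term, 635 and 705 in replicates 4 and above and 287 and 345 in replicates 1 to 3; genes with an adjusted *P*-value under 0.05 were 2, against 476, 949 and 46 with array weights, block and set term. Deviations of same-numbered libraries correlated at 0.35, 0.36, 0.41, 0.25 and 0.05, and 4 of 5 controls were most like the cryptorchid library of the same number, control replicate 5 being most like cryptorchid replicate 7. As not every pair exceeded 0.1 and no source ties the numbers to animals, they were not read as pairs. Under the replicate block the log2 difference was 0.49 for *Smoc2* (limma adjusted *P* = 0.0522) and 1.0 for *Fstl1* (limma adjusted *P* = 0.0594), both past the unadjusted limma threshold and under the 2-fold limit, *Fstl1* just so. Low read numbers limit *Spock3*, *Spock2* and *Sparcl1*.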
